A study of Rattus norvegicus with 8 samples.

Results

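The genes described here are the Wnt ligands, their receptors and antagonists, and a few intracellular components of the same pathway. They were measured in the kidneys of drug-treated and Control rats, in a series on a model of drug-induced renal fibrosis. Members were all non-control array probes whose transcript accession maps to a rat RefSeq symbol of the Wnt, Fzd, Dkk or Sfrp families, or to Lrp5, Lrp6, Ror2, Ctnnb1, Axin1, Axin2, Lef1, Tcf7, Tcf7l2 or Wif1. The rule reads gene symbols and no measured value, but it was chosen with earlier results of these data known. The rule found 42 genes of the 15637 named on the array, out of 48 RefSeq genes that meet it. They were read by 50 of the 30367 probes, since 8 of the genes had 2 probes. Fzd7, Tcf7, Tcf7l2, Wif1, Wnt2 and Wnt3a had no probe in the table used here and were not analysed.

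Total RNA from the kidney of male SD (Sprague-Dawley, an outbred strain) rats aged 10 weeks was hybridised to 8 single-colour Agilent arrays. The APL group (n = 4) had received APL at 150 mg/kg, and the Control group (n = 4) had received 0.5% methylcellulose, a vehicle, each for 4 weeks. The title of the series gives allopurinol, which inhibits xanthine oxidase, as the agent of the fibrosis model, and APL is taken to stand for it. The title speaks of renal tubules and the tissue label of kidney, and no label says whether the replicates came from separate animals, so p-values measure the spread between these samples, which may be technical.

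Wnt proteins are secreted, lipid-modified ligands that bind Frizzled receptors (Fzd) together with the co-receptors Lrp5 and Lrp6. In the canonical branch this protects beta-catenin, the product of Ctnnb1, from a destruction complex built on Axin, so that beta-catenin enters the nucleus and acts with TCF and LEF factors. Other Wnts act without beta-catenin, through planar cell polarity and calcium branches, in which Ror2 is one of the receptors. Dickkopf proteins (Dkk) block the co-receptors, and secreted Frizzled-related proteins (Sfrp) bind the ligands. In the kidney the pathway is known for its part in nephron formation, where Wnt9b and Wnt4 act in sequence, and for its activity in models of injury and fibrosis.

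Short stretches of promoter are shown for 4 members because Axin2 and Dkk1 are known as targets of the canonical branch, while Wnt10a and Wnt5a are ligands that differed between the groups in opposite directions. The windows are RefSeq sequence of build GRCr8, 5′ to 3′ on the strand of the gene, from 250 bases before to 50 bases after its start. Capitals mark matches to 4 forms of the sequence that TCF and LEF factors are known to bind, searched on both strands. The forms are CTTTGAT or CTTTGAA or CTTTGTT or CTTTGTA.
Axin2, chr10:94398535-94398834, plus strand: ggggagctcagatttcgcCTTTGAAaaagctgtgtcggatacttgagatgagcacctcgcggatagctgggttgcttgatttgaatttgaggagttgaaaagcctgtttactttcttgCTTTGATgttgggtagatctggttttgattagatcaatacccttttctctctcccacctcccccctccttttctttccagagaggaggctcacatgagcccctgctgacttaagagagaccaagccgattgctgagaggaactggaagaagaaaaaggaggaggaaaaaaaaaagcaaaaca
Dkk1, chr1:237798601-237798900, minus strand: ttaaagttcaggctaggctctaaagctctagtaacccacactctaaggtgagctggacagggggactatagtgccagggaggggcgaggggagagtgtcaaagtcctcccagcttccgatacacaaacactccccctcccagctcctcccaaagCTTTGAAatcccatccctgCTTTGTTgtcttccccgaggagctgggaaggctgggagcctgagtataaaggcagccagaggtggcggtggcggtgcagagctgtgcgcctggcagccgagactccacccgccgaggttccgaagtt
Wnt10a, chr9:83798344-83798643, plus strand: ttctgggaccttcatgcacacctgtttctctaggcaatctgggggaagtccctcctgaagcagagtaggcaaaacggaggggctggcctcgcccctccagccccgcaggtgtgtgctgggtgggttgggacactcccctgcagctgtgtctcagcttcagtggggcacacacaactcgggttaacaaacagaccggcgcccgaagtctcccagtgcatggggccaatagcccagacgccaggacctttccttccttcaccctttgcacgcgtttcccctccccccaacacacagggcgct
Wnt5a, chr16:3703415-3703714, plus strand: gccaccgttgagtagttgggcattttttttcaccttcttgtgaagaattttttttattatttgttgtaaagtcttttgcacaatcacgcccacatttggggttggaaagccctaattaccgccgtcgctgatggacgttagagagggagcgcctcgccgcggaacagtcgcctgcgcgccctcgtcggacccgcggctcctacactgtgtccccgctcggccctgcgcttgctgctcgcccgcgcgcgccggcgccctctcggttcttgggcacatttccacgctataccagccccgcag

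The Axin2 window held CTTTGAA with its first base at -232 from the start and CTTTGAT at -132, and the Dkk1 window held CTTTGAA at -96 and CTTTGTT at -77. The Wnt10a and Wnt5a windows held none of the 4. A window was at hand for 28 of the 42 member genes, and 6 of these 28 held at least 1 match (21.4%), against 5719 of 33469 windows of all rat genes (17.1%). Beside Axin2 and Dkk1 these were Dkkl1, Sfrp5, Wnt3 and Wnt8a. None of the 6 genes with a window whose expression differed between the groups held a match. A match of letters is a description and not a binding site, and a window without one says only that these letters are not in it.

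Values are given on a log2 scale as the processed signal of a probe over its own array's 75th percentile, so that 0 is the 75th percentile and -7.64 the floor that was set for the dimmest spots. The levels of different probes are not set against each other. Before scaling, the 75th percentiles were 378 to 497 intensity units on the APL arrays and 272 to 307 on the Control arrays, and 80.0 to 81.9% and 74.0 to 77.3% of probes were well above background on the APL and Control arrays. Values left unscaled carry the higher brightness of the APL arrays, which raises log2 fold changes, APL over Control, of genes in general. Control replicate 3 stood apart from the other Control arrays on the second principal component, at -126 against 30.4 to 73.5. The number of arrays limits the precision of each value.

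Of the 42 member genes, 38 were bright enough to be tested, and 8 of them differed between the groups at an adjusted p under 0.05 (limma, Benjamini-Hochberg over all 21416 genes or unnamed transcripts tested). Wnt10a, Fzd1 and Dkk3 rose in APL kidneys, and Wnt5a, Wnt5b, Wnt8b, Fzd4 and Fzd5 fell. The falls of Wnt5b, Wnt8b and Fzd5 turned to small, uncalled positive values when background was instead corrected with normexp before the same scaling. These values all lay below the median of all genes at that setting. The 8 genes are 21.1% of the members tested, close to the 23.5% of all genes called in this comparison. By direction, 7.89% of members were called higher against 11.9% of all genes, and 13.2% were called lower against 11.5%. Without Control replicate 3, 6 members were called.

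The remaining 30 members tested did not pass, and 21 of them had a log2 fold change under 0.5 in size. The median log2 fold change, APL over Control, was -0.0042 over the members and -0.03 over all genes, and the median size was 0.39 against 0.64. The 2 groups did not overlap for 9 members (23.7%), the 8 called and Wnt11, against 29.9% of all genes. Moderated standard errors of the members ranged widely, from 0.19 to 1.62 on the log2 scale with a median of 0.33, so that a difference visible for one gene could go undetected for another.

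**Figure D1:**
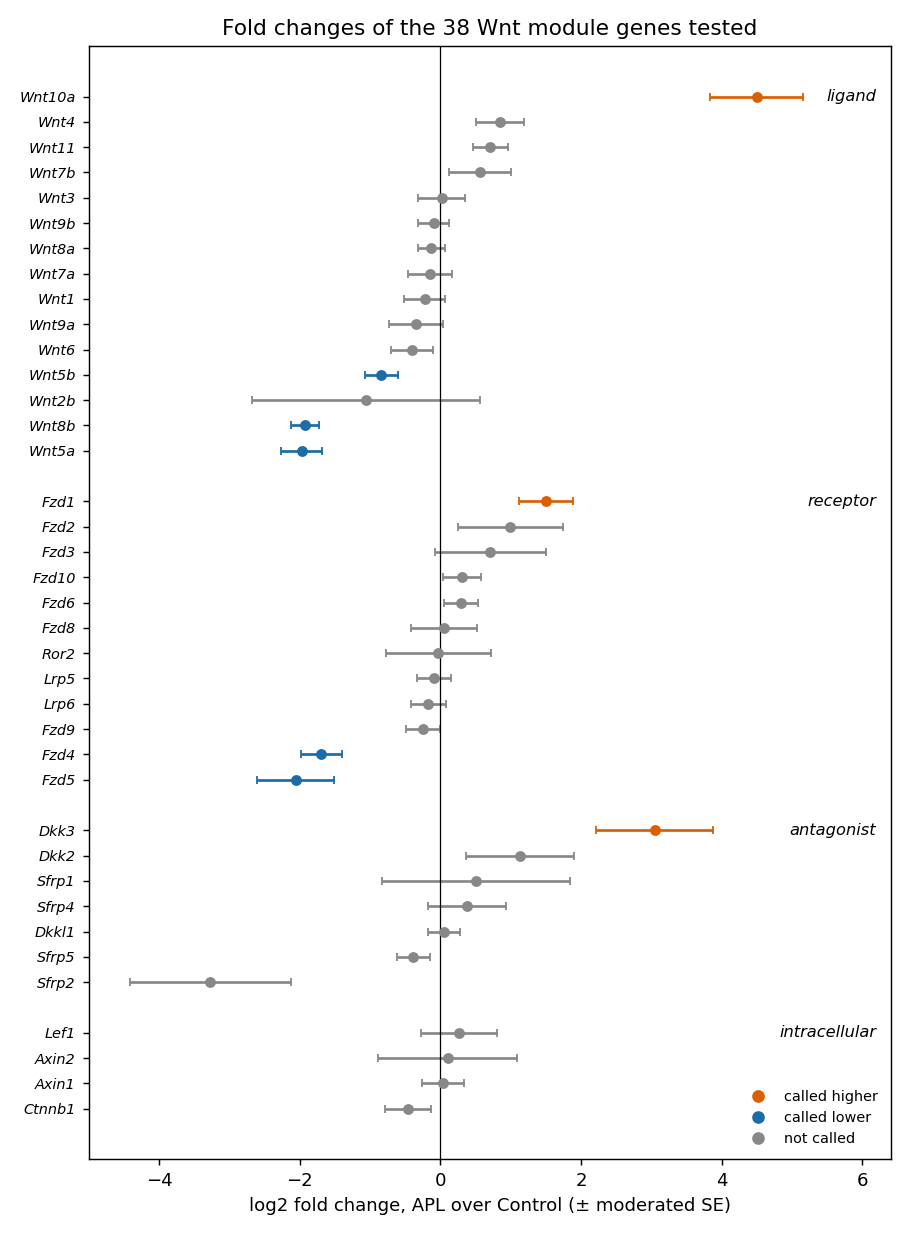
Log2 fold change, APL over Control, of the 38 tested members, sorted by role, with bars of 1 moderated standard error, in orange and blue for the genes called higher and lower at an adjusted p under 0.05 and in grey for those not called. Most members lie close to 0, and Wnt10a at 4.50 and Dkk3 at 3.05 are the called genes farthest to the right.

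Among the 17 ligand genes on the array 15 were tested, of which 1 rose, 3 fell and 11 did not pass, with a median log2 fold change of -0.14. Wnt10a, a ligand known mainly from teeth, skin and hair and able to signal through beta-catenin, read -0.85, -3.79, -2.70 and -1.53 in APL kidneys and -6.75, -6.61, -5.86 and -7.64 in Control kidneys. Every APL array was far above every Control array. The probe was well above background on all 4 APL arrays and on no Control array, so the difference is given as a bound. On the processed signal Wnt10a was at least 13.3-fold higher in APL kidneys, which compares the APL mean with the dimmest signals still measurable on the Control arrays. The fitted log2 fold change was 4.50 ± 0.66 (adjusted p = 0.00242). The fitted difference was 4.36 within one slide and 4.64 within the other. After normexp background correction it was 1.38 with the same scaling, where the call was lost (adjusted p = 0.0642), and 0.83 with quantile normalization. Both lie below the bound, which therefore holds for the processed signal only.

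Wnt5a, the best-known ligand of the branches that bypass beta-catenin, read -2.26, -1.03, -1.62 and -1.28 in APL kidneys and 0.30, 0.54, 0.66 and 0.21 in Control kidneys. The groups were well apart, and the Control arrays lay close together. Wnt5a differed by -1.97 ± 0.29 as a log2 fold change (adjusted p = 0.00253), a level 3.92-fold higher in Control kidneys, and it was -2.06 and -1.88 within the 2 slides. With normexp and the same scaling it was -1.05 and not called (adjusted p = 0.0716).

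Wnt5b, the closest relative of Wnt5a, read -3.74, -3.74, -4.17 and -4.27 in APL kidneys and -2.78, -3.23, -3.06 and -3.51 in Control kidneys. The groups were adjacent without overlap. Its log2 fold change of -0.84 ± 0.24 (adjusted p = 0.0389) was the smallest in size of the 8, and the call was lost without any single APL array or any of Control replicates 1 to 3 (adjusted p up to 0.0978). Without scaling between arrays, where log2 fold changes of genes in general were higher, it was -0.20 (adjusted p = 0.526).

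Wnt8b, a ligand known from forebrain development, read -5.64, -5.10, -5.27 and -5.63 in APL kidneys and -3.34, -3.67, -3.48 and -3.44 in Control kidneys. Both groups were tight, and the probe was well above background on all 8 arrays. The log2 fold change was -1.92 ± 0.20 (adjusted p = 0.000500), or 3.80-fold higher in Control kidneys, with -1.86 and -1.99 within the 2 slides. Its value depended on the processing: it was 0.21 and not called after normexp with the same scaling and -0.36 (adjusted p = 0.00641) after normexp with quantile normalization.

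**Figure D2:**
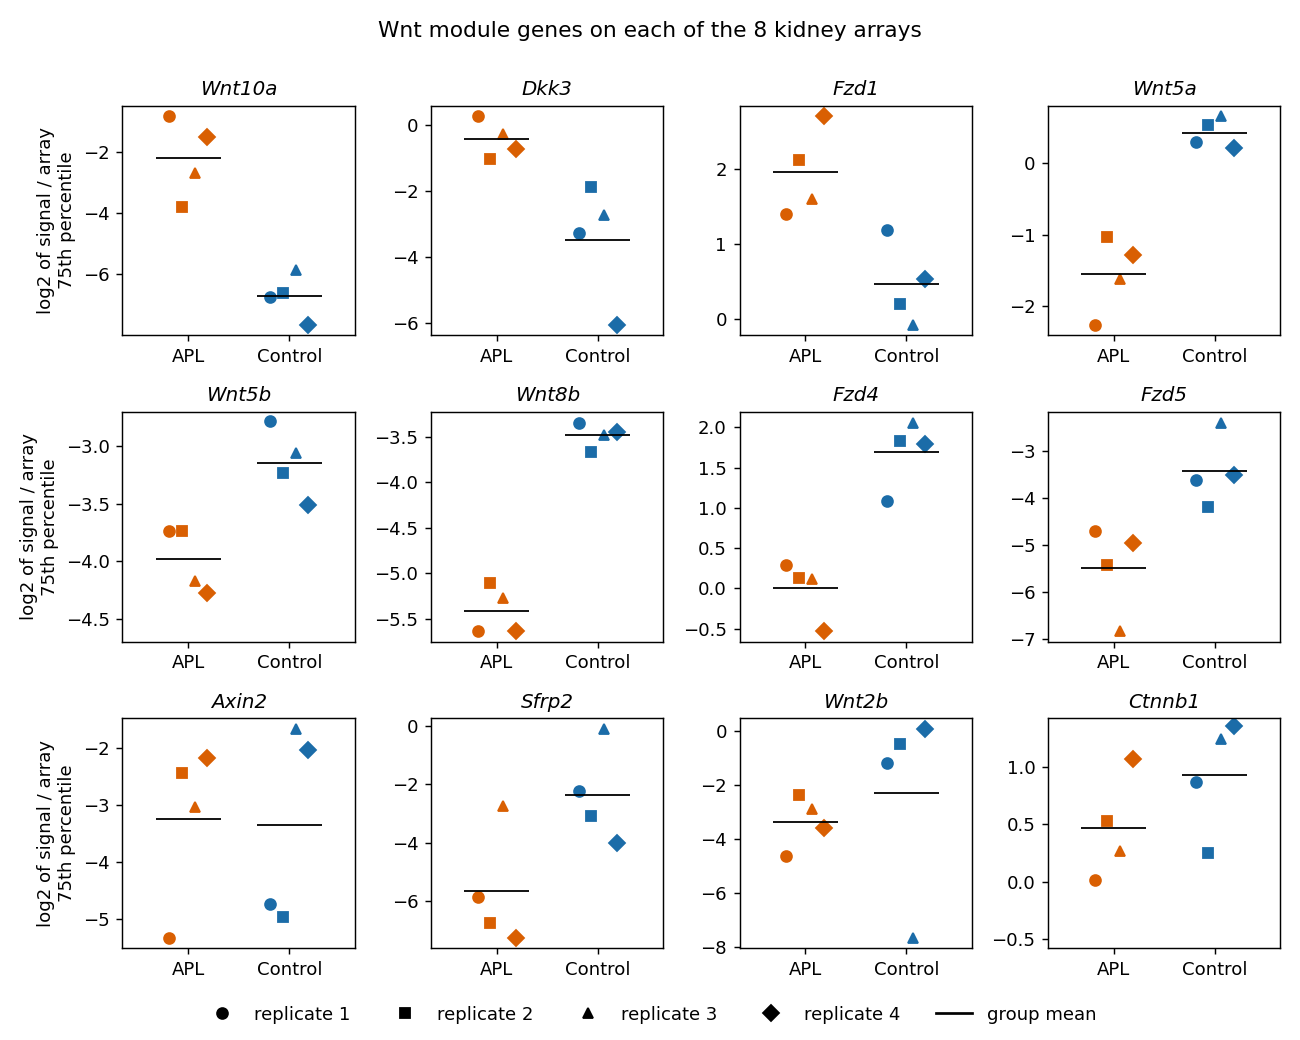
Log2 of the processed signal over the array's 75th percentile for 12 members on each of the 8 arrays, APL left and Control right, with 1 marker shape per replicate number and a line at the group mean. The groups are separate for Wnt10a, Dkk3, Fzd1, Wnt5a, Wnt5b, Wnt8b, Fzd4 and Fzd5, while Axin2, Sfrp2, Wnt2b and Ctnnb1 overlap.

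Wnt11, a ligand known from the branching ureteric tip, was the only other member without overlap. It read -0.97, -0.74, -1.62 and -1.47 in APL kidneys and -2.18, -1.93, -1.80 and -1.73 in Control kidneys, a difference of 0.71 ± 0.25 that did not pass (adjusted p = 0.0784). Without scaling between arrays it was 1.35 (adjusted p = 0.00296), but there the log2 fold changes of genes in general were higher. Wnt4, which drives the conversion of mesenchyme to epithelium in the developing nephron, read -4.58, -4.13, -5.48 and -4.24 in APL kidneys and -5.55, -5.76, -4.95 and -5.57 in Control kidneys. The lowest APL array, replicate 3, lay inside the Control range, and the log2 fold change was 0.85 ± 0.34 (adjusted p = 0.112). It was 1.14 (adjusted p = 0.0294) without that array, which was picked for its value. Leaving out any other single array gave no call (adjusted p up to 0.236).

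Wnt2b was the ligand with the widest spread. It read -4.62, -2.36, -2.88 and -3.58 in APL kidneys and -1.17, -0.48, -7.64 and 0.09 in Control kidneys. Control replicate 3, the array that stood apart, was at the floor, while the other Control arrays lay above every APL array. The log2 fold change was -1.06 ± 1.62 (adjusted p = 0.667) with all arrays. It was -2.84 (adjusted p = 0.0158) without Control replicate 3, which was picked for its value. Leaving out any other single array gave no call (adjusted p up to 0.927).

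Wnt9b, which starts nephron formation, had a log2 fold change of -0.10 ± 0.22, with APL arrays between -4.32 and -4.02 and Control arrays between -4.37 and -3.78. Wnt7b, known for its role in the collecting duct and medulla, was at 0.56 ± 0.44 with APL arrays between -6.52 and -4.51 and Control arrays between -6.29 and -5.43. In both cases the ranges of the groups overlapped. The other ligands tested were Wnt6 at -0.40, Wnt9a at -0.34, Wnt1 at -0.22, Wnt7a at -0.14, Wnt8a at -0.13 and Wnt3 at 0.02 on the log2 fold scale, with none passing. Wnt10b and Wnt16 were well above background on no array and were not tested.

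Some ligand genes lie next to each other on the chromosome, in pairs known from many vertebrates. Wnt6 and Wnt10a are neighbours on chromosome 9 in RefSeq, and their log2 fold changes were -0.40 and 4.50. Wnt9b and Wnt3 are neighbours on chromosome 10, and both were near 0, at -0.10 and 0.02. Wnt1 (-0.22) lies beside the untested Wnt10b on chromosome 7.

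All 12 receptor and co-receptor genes on the array were tested, of which 1 rose, 2 fell and 9 did not pass, with a median log2 fold change of 0.01. Fzd4, a Frizzled known as the receptor of Norrin in blood vessel formation, read 0.29, 0.13, 0.12 and -0.53 in APL kidneys and 1.08, 1.83, 2.06 and 1.80 in Control kidneys. Every APL array was below every Control array. Fzd4 differed by -1.69 ± 0.29 as a log2 fold change (adjusted p = 0.00482), a level 3.22-fold higher in Control kidneys, with -1.24 and -2.13 within the 2 slides. Of the 8 called members it was the one that stayed called at every setting run on all 8 arrays (-1.69 to -1.05) and without each array in turn (-1.89 to -1.51).

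Markers of endothelial cells were also lower in APL kidneys, as were 6 of 8 proximal tubule and 3 of 5 thick limb markers. Over all genes 11.5% were called lower. Of the 6 endothelial markers tested, 5 fell, with log2 fold changes of -4.18 for Emcn, -4.09 for Tek, -3.73 for Kdr, -2.79 for Pecam1 and -2.74 for Flt1, while Cdh5 was at -2.55 (adjusted p = 0.0887). Kdr kept its call at every setting run on all 8 arrays, and the other 4 lost it with normexp and the 75th percentile. Their smallest values over the settings were -0.42 for Emcn, -0.06 for Tek, -0.86 for Pecam1 and -1.35 for Flt1. Emcn and Tek were well above background on 1 APL array and 4 Control arrays, and Emcn overlapped between the groups and lost its call without 5 of the 8 arrays taken singly. The summed level of the list, as a mean deviation from each gene's own mean, ranged from -2.07 to -1.41 on APL arrays and from 0.83 to 2.23 on Control arrays. In bulk tissue, fewer cells of a type and less RNA per cell cannot be told apart, and the part of these markers in the Fzd4 result was not tested.

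Fzd1, a Frizzled that can signal through beta-catenin, read 1.40, 2.13, 1.60 and 2.71 in APL kidneys and 1.19, 0.20, -0.08 and 0.54 in Control kidneys. The lowest APL array lay just above the highest Control array. Fzd1 had a log2 fold change of 1.50 ± 0.38 (2.83-fold, adjusted p = 0.0261), with 1.07 and 1.93 within the 2 slides, and the call was lost without Control replicate 2, 3 or 4 or APL replicate 2 or 4 (adjusted p up to 0.0662). It was also lost with normexp and the same scaling, at 1.18 (adjusted p = 0.120).

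Fzd5, a Frizzled known for its part in eye and gut epithelium, read -4.71, -5.44, -6.84 and -4.96 in APL kidneys and -3.63, -4.20, -2.40 and -3.52 in Control kidneys. The groups did not overlap, and the probe was well above background on 3 APL arrays and all 4 Control arrays. The log2 fold change was -2.05 ± 0.55 (adjusted p = 0.0309), with -1.16 and -2.94 within the 2 slides. The call was lost without Control replicate 1, 3 or 4 or APL replicate 2 or 4 (adjusted p up to 0.0683), without scaling (-1.41, adjusted p = 0.0746) and after both normexp settings, at 0.11 with the same scaling and -0.41 with quantile normalization.

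Neither co-receptor of the canonical branch passed the test. Lrp5 read -0.03, 0.19, -0.11 and -0.27 in APL kidneys and -0.27, 0.02, 0.55 and -0.15 in Control kidneys, a log2 fold change of -0.09 ± 0.24. Lrp6 read -0.03, 0.77, 0.16 and 0.74 in APL kidneys and 0.71, 0.29, 0.80 and 0.50 in Control kidneys, a log2 fold change of -0.17 ± 0.26. The groups overlapped for both (adjusted p = 0.810 for Lrp5 and 0.665 for Lrp6). A second Lrp6 probe gave -1.43 ± 0.68, and the mean of both probes gave -0.80.

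Ror2, the receptor tyrosine kinase known for Wnt5a signalling, had APL arrays between -2.94 and -0.33 and Control arrays between -2.87 and 0.14, with a log2 fold change of -0.03 ± 0.74 (adjusted p = 0.981). With an error of that size a small or moderate change in either direction would not have been detectable. Of the other Frizzleds, Fzd2 was at 0.995 ± 0.743, Fzd3 at 0.71 ± 0.79, Fzd10 at 0.31 ± 0.26, Fzd6 at 0.29 ± 0.25, Fzd8 at 0.06 ± 0.47 and Fzd9 at -0.24 ± 0.24 on the log2 fold scale. None of these 6 passed. Fzd6 and Fzd10 were called higher, at 0.93 and 0.95, without scaling between arrays, where log2 fold changes of genes in general were higher.

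Among the 9 secreted antagonists or their relatives 7 were tested, of which 1 rose and 6 did not pass, with a median log2 fold change of 0.38. Dkk3, a Dickkopf relative that is not known to bind the Lrp co-receptors as Dkk1 does, read 0.26, -1.03, -0.27 and -0.72 in APL kidneys and -3.26, -1.89, -2.74 and -6.05 in Control kidneys. All APL arrays were above all Control arrays, and the Control spread was wide because of replicate 4, where the probe was not well above background. Dkk3 had a log2 fold change of 3.05 ± 0.83 (8.27-fold, adjusted p = 0.0333), with 2.19 and 3.90 within the 2 slides. The call was lost without Control replicate 1 or any single APL array (adjusted p up to 0.0800), and without the filter on dim probes (adjusted p = 0.0543). The normexp settings kept the call at smaller sizes, 1.68 and 1.34.

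Sfrp2, a ligand-binding antagonist, read -5.85, -6.72, -2.73 and -7.24 in APL kidneys and -2.24, -3.09, -0.11 and -4.02 in Control kidneys. APL replicate 3 lay inside the Control range, and the other APL arrays lay below it. The log2 fold change was -3.27 ± 1.14 and did not pass (adjusted p = 0.0749). It was -4.24 (adjusted p = 0.0199) without APL replicate 3, which was picked for its value. Leaving out any other single array gave no call (adjusted p up to 0.176). After normexp with the same scaling the log2 fold change of Sfrp2 was only -0.19 (adjusted p = 0.858). After normexp with quantile normalization it was -0.78 (adjusted p = 0.178). With a replicate block it stayed at -3.27 and passed (adjusted p = 0.00422). The probe was well above background on 2 APL arrays and all 4 Control arrays.

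Sfrp1 read -0.63, -2.40, -3.60 and 0.05 in APL kidneys and 0.15, -1.37, -5.83 and -1.57 in Control kidneys, with wide overlap and a log2 fold change of 0.51 ± 1.33. Dkk2 was at 1.13 ± 0.77 (adjusted p = 0.322), with its probe well above background on 3 APL arrays and 1 Control array. Sfrp4 was at 0.38 ± 0.56, Sfrp5 at -0.38 ± 0.24 and Dkkl1, a Dickkopf-like protein known from the testis, at 0.06 ± 0.22.

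The co-receptor antagonists Dkk1 and Dkk4 were too dim for the filter. Dkk1 was well above background on 2 APL arrays and no Control array. Dkk4 was well above background on 3 APL arrays and no Control array, reading -0.94, -3.65, -7.64 and -4.15 in APL kidneys and -7.01, -6.29, -7.49 and -7.64 in Control kidneys. APL replicate 3 was at the floor, and the other APL arrays were above the Control arrays. The groups overlapped, and the difference did not pass when all probes were tested without the filter (adjusted p = 0.167).

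None of the 4 intracellular members on the array passed the test. Ctnnb1, which encodes beta-catenin, read 0.01, 0.53, 0.27 and 1.07 in APL kidneys and 0.86, 0.24, 1.24 and 1.35 in Control kidneys, a log2 fold change of -0.46 ± 0.33 (adjusted p = 0.353). The groups overlapped, and this is the transcript only: the stability of the protein, by which the canonical branch is controlled, was not measured here.

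Axin2, a negative regulator known as a general target of the canonical branch, read -5.32, -2.44, -3.03 and -2.17 in APL kidneys and -4.73, -4.97, -1.66 and -2.02 in Control kidneys. Both groups spanned about the same range. Axin2 had a log2 fold change of 0.11 ± 0.99 (adjusted p = 0.948), with 0.97 on one slide and -0.76 on the other. With an error of that size, neither a rise nor a fall of Axin2 would have been detectable unless large.

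Axin1, the scaffold of the destruction complex, read 0.59, 0.98, 1.42 and 0.59 in APL kidneys and 1.02, 0.76, 0.32 and 1.33 in Control kidneys, a log2 fold change of 0.04 ± 0.30. Lef1, a nuclear partner of beta-catenin, read -5.74, -6.99, -6.41 and -5.11 in APL kidneys and -6.53, -7.43, -5.32 and -6.04 in Control kidneys, a log2 fold change of 0.27 ± 0.54. The groups overlapped for both genes, and the Lef1 probe was well above background on 3 APL arrays and 1 Control array.

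Of the 50 member probes 44 passed the filter, and 8 of these were called in a fit of single probes (18.2%, against 22.7% of all probes). In 6 genes both probes were kept, and the pairs did not always tell the same story. The brighter Fzd6 probe gave 0.29 ± 0.25, while its second probe, present in 10 spots, read -0.01, -0.35, -0.10 and 0.12 in APL kidneys and -1.63, -1.33, -4.77 and -1.84 in Control kidneys. This second probe did not overlap between the groups and gave 2.31 ± 0.71 (adjusted p = 0.0518 over all probes). For Wnt11 both probes were higher in APL kidneys, at 0.71 ± 0.25 and 1.89 ± 0.65, and neither passed (adjusted p = 0.0729 for the second).

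Beside Lrp6, the second probe of Ror2 gave 1.34 ± 1.22 against -0.03 ± 0.74, that of Wnt9b gave 0.94 ± 1.102 against -0.10 ± 0.22, and that of Sfrp5 gave 0.03 ± 0.38 against -0.38 ± 0.24. Values for these genes therefore belong to the probe they were read from. The 8 called genes were each measured by 1 probe.

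**Figure D3:**
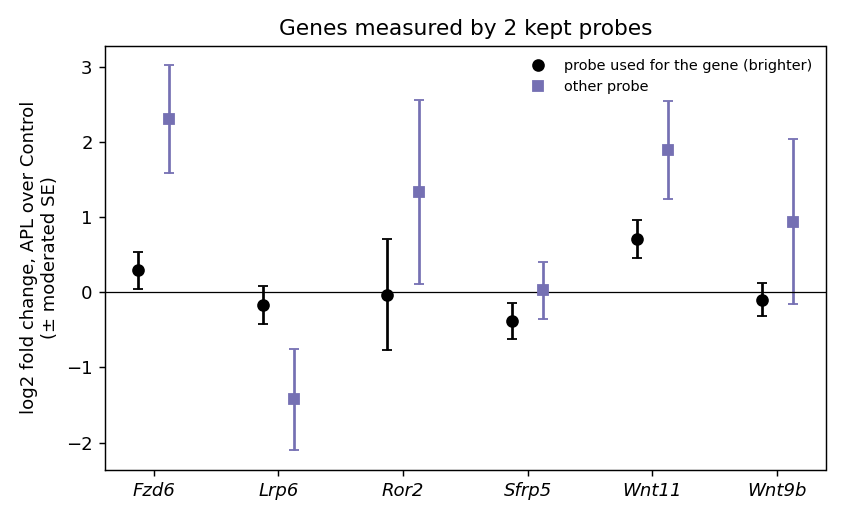
Log2 fold change, APL over Control, of both kept probes for the 6 member genes with 2 kept probes, with bars of the moderated standard error. Black circles are the brighter probe, used for the gene, and purple squares the other probe. The second Fzd6 probe lies at 2.31 and the first at 0.29.

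Genes outside the families but in the same pathway were read from 7 lists of 118 genes, of which 96 were tested and 28 (29.2%) called, 18 higher and 10 lower, with a median log2 fold change of 0.32. Over all genes 23.5% were called, 11.9% higher and 11.5% lower, with a median of -0.03. The list of reported targets, 27 of the 96 genes, held 8 of the 18 higher and 7 of the 10 lower. The pooled share therefore does not describe the pathway components alone, and the lists were chosen with earlier results of these data known. Both genes of Wnt secretion rose. Wls, the carrier that brings Wnt proteins to the cell surface, read 2.16, 2.58, 2.21 and 3.06 in APL kidneys and 1.20, -0.08, 0.02 and -0.66 in Control kidneys. The groups were separate, and the log2 fold change of 2.38 ± 0.41 (adjusted p = 0.00525) was called at every setting on all 8 arrays and without each array. Porcn, the enzyme that attaches the lipid to Wnt proteins, read -0.37, 0.22, 0.35 and 0.29 in APL kidneys and -1.10, -0.79, -0.61 and -1.07 in Control kidneys, without overlap (1.02 ± 0.24, adjusted p = 0.0186). Its call was lost without APL replicate 2 or 4 and with normexp and the same scaling.

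None of the 5 tested genes of the R-spondin module, which sets how many Frizzleds stay on the surface, passed. Lgr4, an R-spondin receptor, was at -0.34 ± 0.43 and Rnf43, a ligase that removes Frizzleds, at -0.62 ± 0.53. Its relative Znrf3 was not analysed here. Of 8 other antagonists tested, 2 rose: Tpbg, an inhibitor at the cell membrane, at 2.93 ± 0.50 (adjusted p = 0.00465), and Apcdd1, which binds ligand and co-receptor, at 2.57 ± 0.74 (adjusted p = 0.0399). The Apcdd1 call was lost without 7 of the 8 arrays taken singly, all but APL replicate 3, and its groups overlapped. It was also lost at several other settings, among them both normexp settings.

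In the cytoplasmic list 2 of 17 genes rose. Csnk1e, a casein kinase that acts on Dishevelled, read -0.12, 0.02, -0.06 and -0.04 in APL kidneys and -2.58, -2.12, -2.97 and -2.80 in Control kidneys. The APL arrays were almost equal and far above the Control arrays (2.57 ± 0.23, adjusted p = 0.000203, with 1.43 as the lowest value at other settings, where the call held). Tnks2, a tankyrase that marks Axin for breakdown, was at 1.35 ± 0.35 (adjusted p = 0.0286), a call lost without Control replicate 1 or any single APL array. It was also lost with normexp and the same scaling, with the mean of its probes and with a replicate block. Gsk3b and Apc, a kinase and a scaffold of the destruction complex, were at 0.34 ± 0.24 and 0.08 ± 0.52 and did not pass.

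In the nuclear list 3 of 14 genes rose, among them the corepressors Ctbp2 at 1.38 ± 0.25 (adjusted p = 0.00674) and Tle2 at 2.39 ± 0.57 (adjusted p = 0.0207), and Pygo2, a coactivator of beta-catenin, at 0.88 ± 0.26 (adjusted p = 0.0429). The Ctbp2 call was lost with normexp and the same scaling and with the mean of its probes. The Tle2 call was lost without Control replicate 4 or APL replicate 2 or 4, with normexp and the same scaling and with a replicate block. The Pygo2 call was lost without any of 6 single arrays and at several other settings, among them both normexp settings and quantile normalization. In the planar polarity and calcium list 1 of 23 genes rose and 3 fell. Camk2d, a calcium-dependent kinase, was at 2.64 ± 0.59 (adjusted p = 0.0157) and its relative Camk2a at -0.90 ± 0.18 (adjusted p = 0.0102). Celsr3, an adhesion receptor of the planar polarity branch, was at -1.37 ± 0.21 (adjusted p = 0.00301) and the kinase gene Mapk9 at -0.97 ± 0.28 (adjusted p = 0.0386). The Mapk9 call was lost without any of 6 single arrays, and all 4 calls were lost with normexp and the same scaling.

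Among 27 tested genes reported elsewhere as targets of the canonical branch, 8 rose and 7 fell, where 11.9% and 11.5% of all genes did. This list was chosen with earlier results of these data known, so its counts are a description only. The median log2 fold change of the 27 genes was 0.73, and it lay between 0.09 and 1.37 at the other settings. Cd44, a cell-surface receptor of hyaluronan, read 0.97, 1.54, 1.80 and 1.34 in APL kidneys and -7.28, -5.21, -6.58 and -5.24 in Control kidneys. The 2 groups were far apart (7.49 ± 0.49, adjusted p = 5.52e-05), as they were for Mmp7, a matrix metalloproteinase (6.60 ± 0.71, adjusted p = 0.000536), and S100a4, a calcium-binding protein known from fibroblasts and leukocytes (5.09 ± 1.11, adjusted p = 0.0146). All 3 kept their calls at the settings run on all 8 arrays, at sizes down to 2.69 for Cd44, 3.05 for Mmp7 and 3.26 for S100a4. Only 2 Control arrays read the Cd44 and Mmp7 probes well above background, and 3 read that of S100a4, so the sizes are imprecise. Myc and Ccnd1, named after their values were seen, went opposite ways, at 3.32 ± 0.68 (adjusted p = 0.0108) and -2.74 ± 0.35 (adjusted p = 0.00115). These genes answer to other pathways too, and of the members known as such targets Axin2 and Lef1 did not pass and Dkk1 was not tested.

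**Figure D4:**
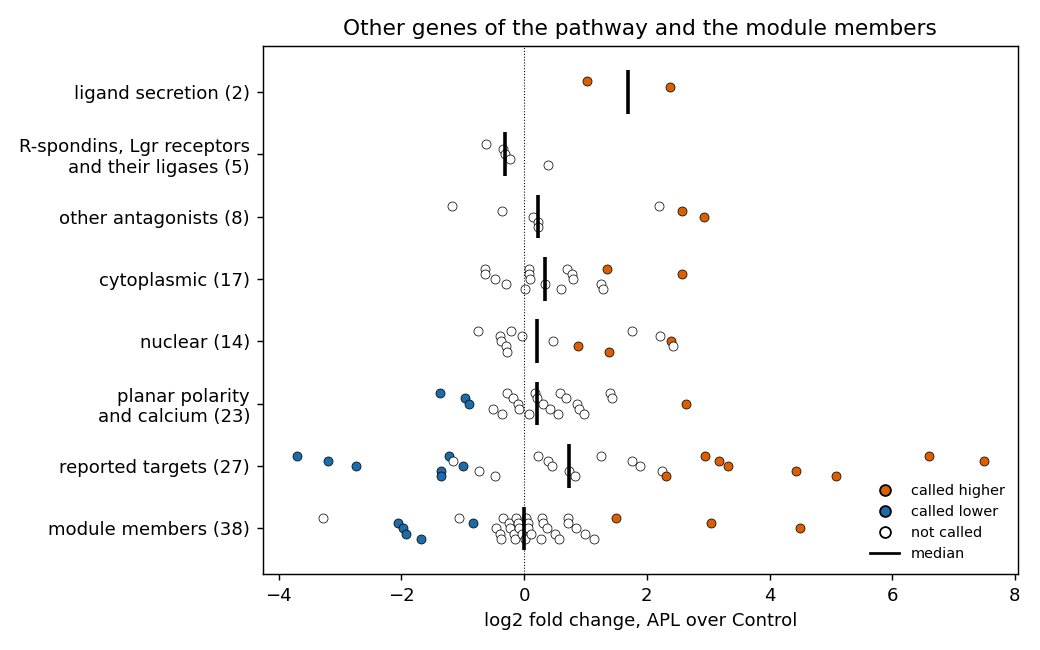
Log2 fold change, APL over Control, of each tested gene in the 7 lists of other pathway genes and of the 38 tested members, in orange and blue for genes called higher and lower at an adjusted p under 0.05 and in white for those not called, with a bar at each median. Both genes of Wnt secretion lie to the right of 0, and the reported targets spread widely to both sides.

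Markers of other kidney cell types also moved with treatment, and their part in the values above was not tested. Of 7 markers of injured tubule 4 rose and none fell, with list levels of 1.88 to 2.26 on APL arrays and -2.70 to -1.58 on Control arrays. Of 8 proximal tubule markers 6 fell and 1 rose, with list levels of -1.43 to -0.87 on APL arrays and 0.97 to 1.50 on Control arrays, and 3 of 5 thick limb markers fell (-2.63 to -0.43 on APL arrays and 1.14 to 1.57 on Control arrays). Of 5 tested macrophage markers 2 rose (0.52 to 0.75 on APL arrays and -1.05 to -0.05 on Control arrays). Fibroblast and pericyte markers, cells known to make several Wnt ligands and antagonists, overlapped between the groups as a list (-0.57 to 1.26 on APL arrays and -0.62 to -0.06 on Control arrays), with 2 of 9 higher and 1 lower, and Lum and Postn too dim to test. Collecting duct markers had 1 of 6 higher (0.06 to 1.53 on APL arrays and -1.65 to 0.18 on Control arrays). Of 6 podocyte markers 1 was called higher and 1 lower, and no call was made among 5 intercalated cell, 2 distal tubule and 3 T cell markers.

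The 8 called members differed in how far they depended on single arrays and on processing. Wnt10a, Wnt5a, Wnt8b and Fzd4 stayed called without each array in turn, with adjusted p up to 0.0159. Wnt5b, Fzd1, Fzd5 and Dkk3 each lost the call without 5 or more of the 8 arrays taken singly. The number of members called was 5 without Control replicate 1 and 4 without APL replicate 2 or APL replicate 4.

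**Figure D5:**
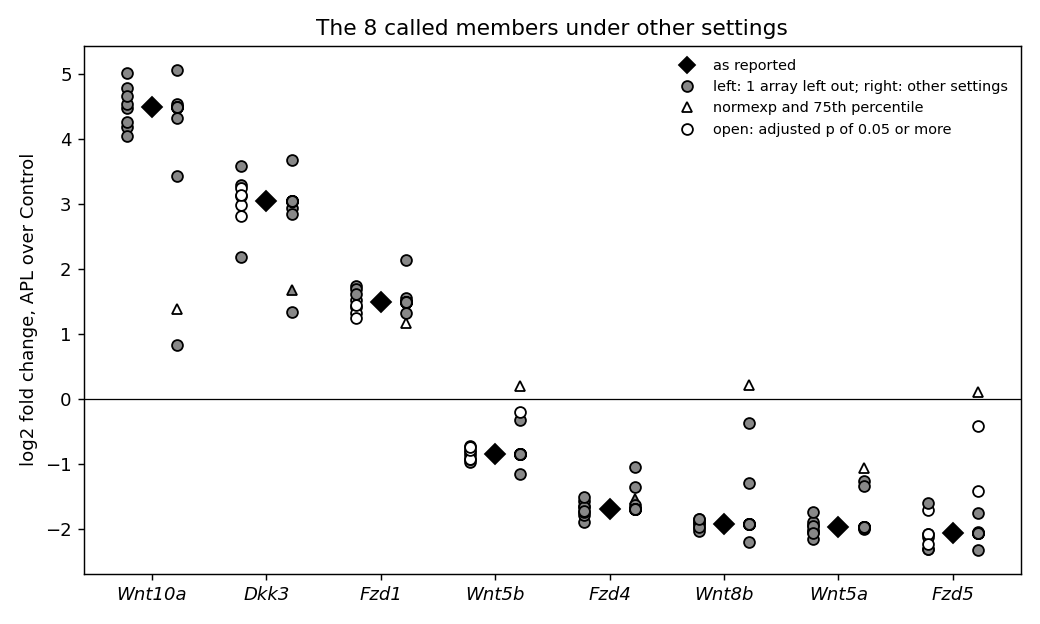
Log2 fold change, APL over Control, of the 8 called members as reported (diamond), without each array in turn (left column) and at the other settings on all arrays (right column, with a triangle for normexp and the 75th percentile), where open symbols have an adjusted p of 0.05 or more. Fzd4 keeps filled symbols throughout, and the triangles of Wnt5b, Wnt8b and Fzd5 lie just above 0.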

How the data were processed

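Total RNA of 8 rat kidney samples, 4 per group, was measured on single-colour Agilent arrays scanned at 5 micrometres. The deposited scanner files hold linear intensity values per spot from Agilent Feature Extraction 10.5.1.1, per the file headers: median spot and local background intensity and a processed signal already corrected for background. A further deposited table gives log2 values by the authors. These nearly equal the processed signal over the 75th percentile of its array, as log2, less the median of each probe: 91.4 to 94.9% of values lay within 0.01 (r = 0.9992 to 0.9997 across probes), and the source of the other differences is unknown. Its column medians were -0.0714, 0.0190, -0.135 and -0.0434 for APL replicates 1 to 4 and 0.0334, 0.0654, 0.0759 and 0.00539 for Control replicates 1 to 4.

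The processed signal was divided by each array's 75th percentile, floored at 0.005 of it and taken to log2. Control spots and non-uniform spots were left out, no spot was saturated, and spots of a probe were averaged. Probes were kept if marked well above background by the software on 4 or more of the 8 arrays, a gene was read from its kept probe of highest mean, and symbols came from RefSeq by accession (18643 of 30367 probes had 1 symbol, and the rest were tested unnamed). Testing used limma 3.58.1 (lmFit, then eBayes) under R 4.3.3 with Benjamini-Hochberg adjustment over all genes at 0.05, and the procedure was tested on simulated data. Errors are moderated standard errors. Among the members tested, Wnt10a, whose probe was well above background on no Control array, was given as a bound. Named were all members, with every array's value for those called or without overlap and for Ctnnb1, Axin2, Lef1, Wnt4, Dkk3, Lrp5 and Lrp6, then the 4 called genes of largest change in each pathway list and Lgr4, Wls, Porcn, Rnf43 and Znrf3, except 1 gene that is not reported here. Other array values, Gsk3b, Apc, Myc and Ccnd1 were chosen after their values were seen. The members and lists were chosen with earlier results of these data known. Alternatives covered the floor, the filter, background correction with normexp (offset 50), scaling, slide and replicate blocks, probe choice, the authors' table, a robust fit and leaving out each array. Each of the 2 slides held replicates of both groups.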

Additional observations from a re-analysis of the deposited data

Results flagged for a closer look

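Wnt2b on the Control arrays had 1 array far from the others: replicate 3 was at -7.64 on the log2 scale, the floor, while the other 3 lay between -1.17 and 0.09. The gap was 0.838 of the whole range of the group, above the critical value of Dixon's test for 4 samples. It was the only such case among 76 combinations of a group and a member gene, where chance alone would be met in about 1 in 20.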

How the results depend on the processing

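The count of 8 called members became 5 when probes had to be well above background on all 8 arrays (28 members then tested, without Wnt10a, Fzd5 and Dkk3), 2 with normexp and the 75th percentile (2072 genes called in all), and 1 and 0 within slide 1 and slide 2, where limma gave 10 and 7 members an unadjusted p under 0.05. Leaving out 1 array gave 4 to 8. Deviations of same-numbered arrays correlated at 0.011, 0.010, 0.048 and -0.016, and those of differently numbered arrays at -0.083 to 0.091. These values gave no sign that the numbers pair the samples, but so few pairs cannot exclude it. With a replicate block 5 members, 18 other pathway genes and 3258 of 21416 genes were called, and Sfrp2 passed (adjusted p = 0.00422). Called member probes became 4 with normexp and the 75th percentile. The 28 called pathway genes became 13 with that setting and 9 and 4 within the slides, and 19 to 25 without 1 array. The median log2 fold change of the members, -0.0042, became 0.47 with normexp and the 75th percentile, -0.19 with quantile normalization and 0.63 without scaling, where the median of all genes was 0.36, -0.11 and 0.60, and ranged from -0.12 to 0.06 without 1 array. Without scaling 83.7% of all calls were higher, against 50.8% as reported, and 7 members were called higher and 3 lower. Wnt5b at 0.21, Wnt8b at 0.21 and Fzd5 at 0.11 reversed sign with normexp and the 75th percentile, and all lay below the median of all genes there, 0.36. The cause was not tested. The remaining settings gave 7 to 10 called members, and of the values of single genes under all settings 802 kept direction and side of the threshold, 50 lost and 9 gained a call. Signal over background limits Wnt10b, Wnt16, Dkk1 and Dkk4.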
